A study of Mus musculus with 10 samples.

Results

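The transcripts of 8 transcription factors of effector regulatory T cells (Tregs) were followed across sorted Treg subsets of the mouse spleen: Prdm1, Irf4, Batf, Maf, Id2, Ahr, Nfil3 and Bhlhe40. They were picked by gene symbol among the 19938 genes measured, and each of the 8 had 1 probe set. The choice was made with earlier results of these data known, so counts of called factors describe and test nothing. Tregs carry Foxp3 and restrain immune responses. Resting, central Tregs recirculate through lymphoid organs, while effector Tregs lose the homing receptor CD62L, take up activation and tissue markers, and make suppressive molecules such as IL-10. In Tregs the AP-1 family member BATF and the interferon regulatory factor IRF4 bind DNA together downstream of the T cell receptor, and Blimp-1, the repressor encoded by Prdm1, is known to mark IL-10-producing effector Tregs. The other factors are c-MAF, an activator of Il10 in T cells, the ligand-activated receptor AHR, the leucine zipper repressor NFIL3, the helix-loop-helix repressor BHLHE40, and ID2, which binds E proteins and keeps them off DNA.

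Tregs were sorted as CD4+ cells with a red fluorescent protein reporter at Foxp3, from spleens of female C57BL/6 mice aged 9 to 14 weeks, and the labels give no treatment. The single FR3 Klrg1+ array holds CD62Llo CD69+ cells that bear Klrg1. The 4 FR3 Klrg1- arrays hold CD62Llo CD69+ cells that lack it. FR2 (n = 2) is likewise Klrg1- and CD62Llo but CD69-, and FR1 (n = 2) is Klrg1- and CD69- with high CD62L (CD62Lhi). CD69 is an early activation marker, and Klrg1 a lectin-like receptor of highly differentiated lymphocytes. Arrays with 1 label are called biological replicates, but whether each came from separate mice is not stated, so p-values measure only the spread between these arrays, which may in part be technical. Values are RMA levels, log2 intensities on the scale the authors deposited, so a difference of 1 is a factor of 2.

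By correlation the 10 arrays split into 2 sets, and FR3 Klrg1- was divided between them. The first array set held FR3 Klrg1- replicates 1 and 2, FR2 and FR1; the second held FR3 Klrg1+, FR3 Klrg1- replicates 3 and 4, and an array whose title pairs the name FR3 with the surface phenotype written for FR1, which was placed in no group. The measured levels of that array are given in the closing section. Arrays correlated at 0.972 to 0.992 within a set and at 0.901 to 0.921 between sets. Groups were therefore compared within a set, in a limma fit that took the array set as a term, and a call means an adjusted p (Benjamini-Hochberg over all genes) under 0.05. The 10 measured Treg and CD4 T cell markers averaged 11.3 to 11.8 on the 9 grouped arrays, and included Foxp3 and Cd4; the gene of CD62L was not used here. For other cell types the marker means over the same arrays were, for the 8 B cell markers 5.49 to 5.75, for the 8 plasma cell markers 5.89 to 6.33, for the 11 macrophage and monocyte markers 5.31 to 5.94, for the 8 dendritic cell markers 4.92 to 5.31, for the 8 NK and innate lymphoid markers 4.64 to 5.44 and for the 3 CD8 T cell markers 6.21 to 6.65. Levels of different probe sets cannot be set against each other, so these means are no measure of purity, and single members stood well above them, such as Xbp1 and Tyrobp.

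**Figure D1:**
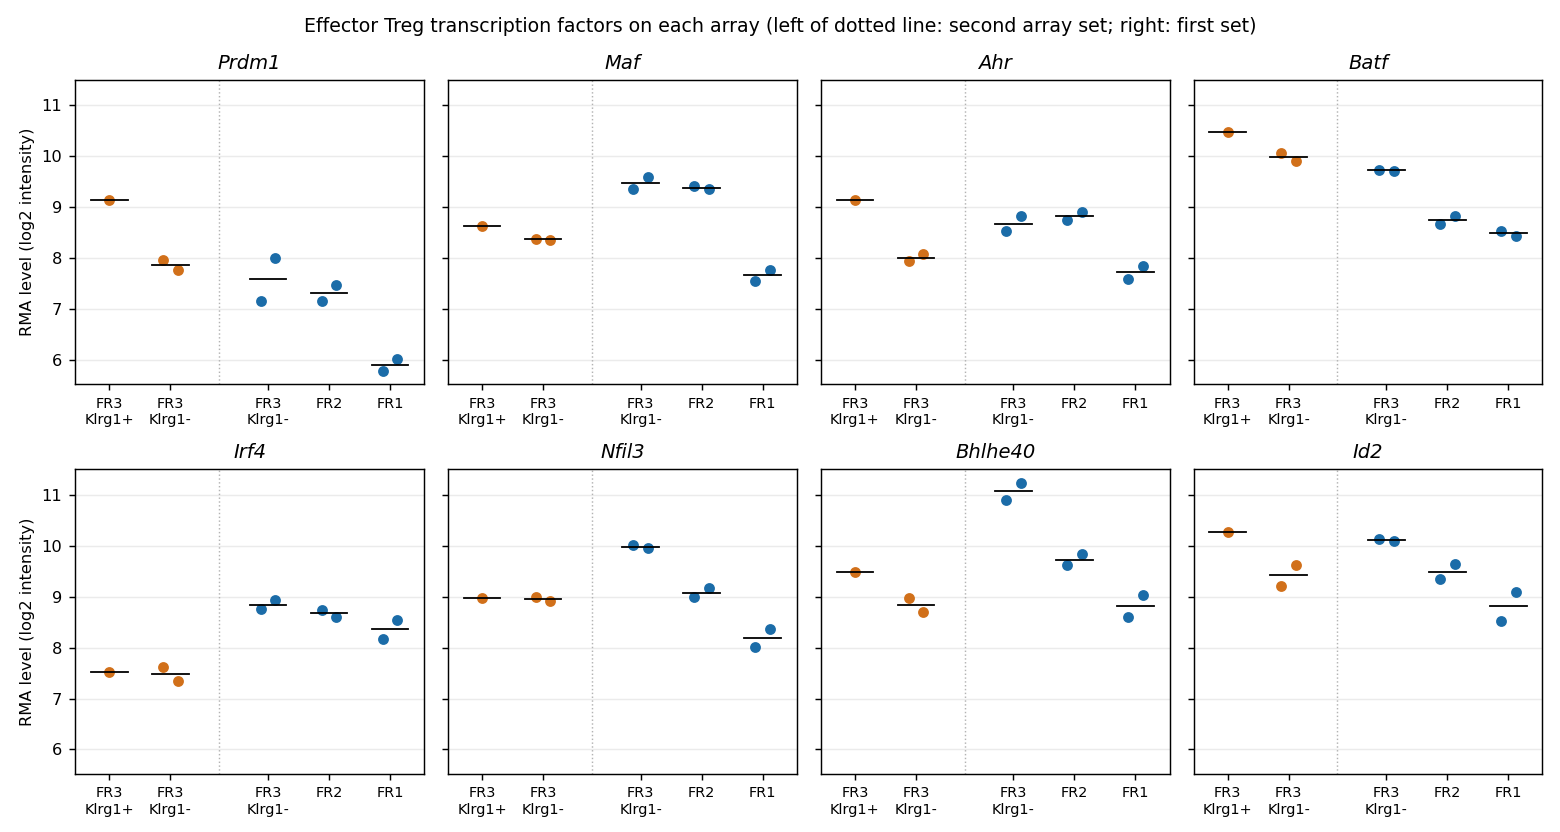
Level of each factor on each grouped array (RMA log2 intensity, vertical axis), by group; points are arrays, bars are group means, orange points left of the dotted line are the second array set and blue points right of it the first. In the first set Maf and Ahr stood high in FR3 Klrg1- and FR2 alike, Batf stood high in FR3 Klrg1-, and Bhlhe40 and Nfil3 formed steps.

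In the first array set 7 of the 8 factors were higher in CD62Llo CD69+ than in CD62Lhi CD69- Tregs. FR3 Klrg1- against FR1 gave calls for Bhlhe40, Maf, Nfil3, Prdm1, Id2, Batf and Ahr, all higher and none lower. Of all genes tested 4.39% were called higher and 3.79% lower, 8.19% in all. This share and those below include dim genes, and it was larger among brighter ones. With genes under percentile 40 of mean level left out, 1965 were called among fewer tested, in place of 1632. The median difference of the 8 was 1.49, and that of all genes 0.02. In bulk samples a larger share of cells with a transcript and more transcript per cell cannot be told apart. The factors differed in which comparison called them. FR2 against FR1, which sets CD62Llo against CD62Lhi cells without CD69, gave 5 factors higher and 0 lower, against 1.96% of all genes higher and 2.30% lower (4.26% in all). FR3 Klrg1- against FR2, which sets CD69+ against CD69- cells among CD62Llo Tregs, gave 3 higher and 0 lower, against 2.81% of all genes higher and 1.94% lower (4.75% in all). These comparisons share arrays, so each factor's values are given side by side. The Cd69 transcript did not follow the CD69 sort: it stood at 12.02 and 12.16 in FR3 Klrg1-, 11.86 and 12.17 in FR2, and 12.11 and 12.41 in FR1, and was not called (FR3 Klrg1- against FR2 0.07 ± 0.18, adjusted p = 0.918, limma). Markers of other cell types moved with FR3 Klrg1- against FR1 too. Of 8 NK and innate lymphoid markers 2 were higher and 0 lower (Klrb1c 1.15 ± 0.14 and Il23r 0.62 ± 0.14), with a mean of 4.90 to 4.92 in FR3 Klrg1- and 4.64 to 4.67 in FR1. Of 8 B cell markers 1 was higher (Cd22) and 1 lower (Cd79a), of 3 CD8 T cell markers 1 was lower (Cd8b1), and of the macrophage, plasma cell and dendritic cell markers 0 were called. Their part in the result was not tested.

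**Figure D2:**
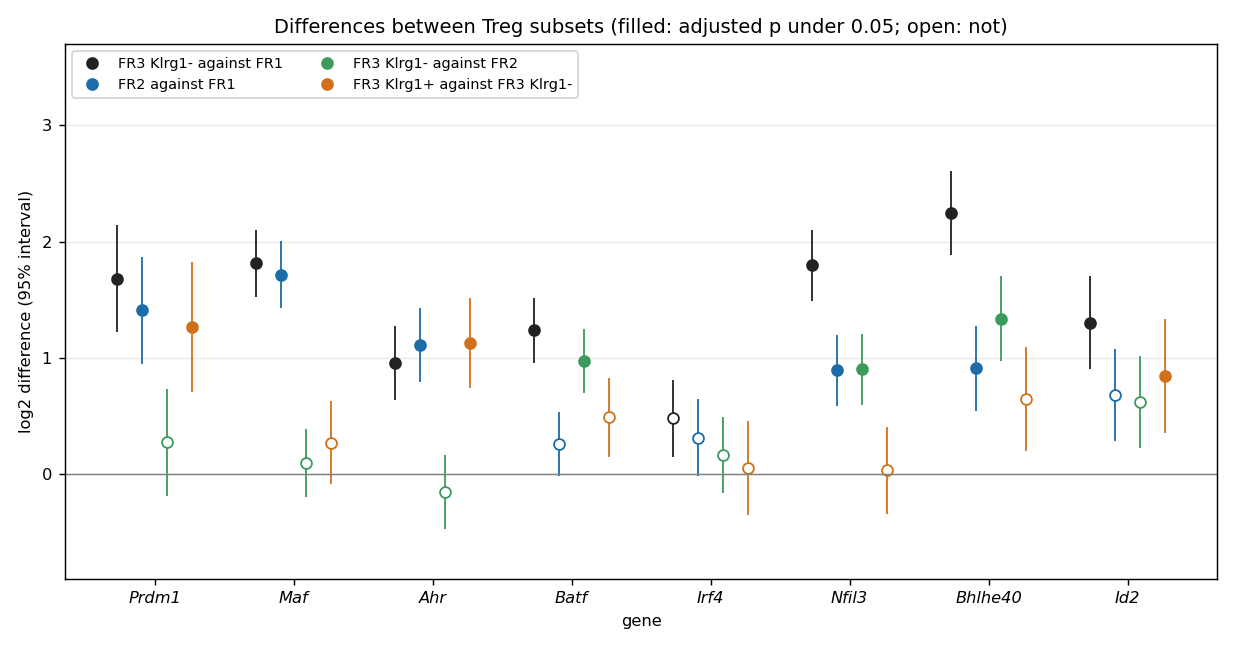
Log2 difference of each factor in 4 comparisons (vertical axis, limma fit with group and array set), with 95% intervals as bars; filled points were called and open points were not. Maf, Ahr and Prdm1 have filled points for FR2 against FR1 and open points near 0 for FR3 Klrg1- against FR2, Batf the other way round, and Irf4 has open points alone.

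Prdm1, Maf and Ahr were higher in FR2 than in FR1, and FR3 Klrg1- gave no further call. Prdm1 lies on chromosome 10 (chr10:44437174-44528558, GRCm38.p6). Its level was 7.16 and 8.01 in FR3 Klrg1-, 7.16 and 7.47 in FR2, and 5.80 and 6.02 in FR1. Both FR1 arrays lay below every other grouped array, and FR3 Klrg1- replicate 1 stood inside the range of FR2. Prdm1 rose by 1.41 ± 0.21 (SE, n = 2 and 2; 2.66-fold) in FR2 against FR1 (adjusted p = 0.00124, limma) and by 1.68 ± 0.21 in FR3 Klrg1- against FR1 (8.59e-05). Between FR3 Klrg1- and FR2 the difference was 0.27 ± 0.21 (adjusted p = 0.642), with a 95% interval of -0.19 to 0.73. Prdm1 in FR1 had the lowest standing of any factor, at percentile 38.2 of the genes on 1 array.

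Maf (chr8:115703253-115706894) had the largest estimated difference of the 8 in FR2 against FR1. It stood at 9.37 and 9.59 in FR3 Klrg1-, 9.41 and 9.35 in FR2, and 7.55 and 7.78 in FR1. The FR3 Klrg1- and FR2 arrays overlapped, more than 1.5 above both FR1 arrays. Maf rose by 1.72 ± 0.14 (3.29-fold) in FR2 against FR1 (adjusted p = 3.8e-06, limma), and by 1.81 ± 0.14 in FR3 Klrg1- against FR1 (4.6e-07). The difference between FR3 Klrg1- and FR2 was 0.10 ± 0.14, with a 95% interval of -0.19 to 0.39 (adjusted p = 0.841).

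Ahr (chr12:35497979-35534989) had levels of 8.53 and 8.83 in FR3 Klrg1-, 8.76 and 8.92 in FR2, and 7.59 and 7.86 in FR1. Again the CD62Llo groups overlapped and FR1 lay below both. Ahr rose by 1.11 ± 0.15 (2.16-fold) in FR2 against FR1 (adjusted p = 0.000354, limma) and by 0.96 ± 0.15 in FR3 Klrg1- against FR1 (0.000489), and FR3 Klrg1- differed from FR2 by -0.16 ± 0.15 (0.722; 95% interval -0.47 to 0.16).

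Whether the CD69 step differed from the CD62L step was tested directly, as the difference of the differences. It was -1.62 ± 0.24 for Maf (adjusted p = 0.00187, limma) and -1.27 ± 0.26 for Ahr (0.0169), so for these genes the CD69 step was smaller. Thus 2 of 8 factors were called lower and 0 higher, while of all genes 1.07% were called lower and 1.60% higher (2.67% in all). For Prdm1 the value was -1.14 ± 0.37 (0.135) and for Batf 0.71 ± 0.22 (0.119), neither past the threshold. Prdm1 passed without FR3 Klrg1- replicate 2 (-1.56 ± 0.29, 0.0146) and with a replicate block (0.0191), and was -0.71 without FR3 Klrg1- replicate 1; Batf passed with an intensity trend (0.0496). The calls rest on few arrays: without FR2 replicate 1 neither passed (Maf 0.0712, Ahr 0.154), and Ahr also missed it without FR1 replicate 1 (0.064), FR2 replicate 2 (0.156) or FR3 Klrg1- replicate 1 (0.083).

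Batf, the AP-1 factor without a transactivation domain of its own, was called at the CD69 step and not at the CD62L step. On chromosome 12 (chr12:85686720-85709087), it stood at 9.73 and 9.72 in FR3 Klrg1-, against 8.67 and 8.83 in FR2 and 8.54 and 8.44 in FR1. Both FR3 Klrg1- arrays lay above all FR2 and FR1 arrays by nearly a full log2 unit. Batf rose by 0.97 ± 0.13 (1.96-fold) in FR3 Klrg1- against FR2 (adjusted p = 0.000372, limma) and by 1.24 ± 0.13 against FR1 (1.31e-05). In FR2 against FR1 the difference was 0.26 ± 0.13 (0.324; 95% interval -0.01 to 0.54).

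Irf4, the DNA-binding partner of BATF, was called in none of these 3 comparisons. The gene (chr13:30749233-30766981) had levels of 8.76 and 8.93 in FR3 Klrg1-, 8.75 and 8.61 in FR2, and 8.17 and 8.55 in FR1. The groups did not overlap, but FR3 Klrg1- replicate 1 lay only just above FR2 replicate 1. Irf4 differed by 0.48 ± 0.15 in FR3 Klrg1- against FR1 (adjusted p = 0.0755, limma; 95% interval 0.15 to 0.81), by 0.32 ± 0.15 in FR2 against FR1 (0.317) and by 0.17 ± 0.15 in FR3 Klrg1- against FR2 (0.714). The first of these passed in the first array set alone (0.0419), and without the block its sign turned (-0.20 ± 0.45, 0.839). It was 0.29 without FR1 replicate 1 and 0.67 without FR1 replicate 2, where it was called (0.0451), and the value in FR2 against FR1 was 0.13 and 0.50 in the same fits.

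Nfil3 and Bhlhe40, both repressors tied to the circadian clock, rose at each step. Nfil3 (chr13:52967209-52982878) stood at 10.02 and 9.95 in FR3 Klrg1-, 9.00 and 9.16 in FR2, and 8.01 and 8.36 in FR1. The 3 groups did not overlap. Nfil3 rose by 0.90 ± 0.14 in FR3 Klrg1- against FR2 (adjusted p = 0.00161, limma), by 0.89 ± 0.14 in FR2 against FR1 (0.00188) and by 1.80 ± 0.14 (3.48-fold) in FR3 Klrg1- against FR1 (8.14e-07).

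Bhlhe40 (chr6:108660629-108666925) had the largest estimated difference of the 8 in FR3 Klrg1- against FR1. Its levels were 10.90 and 11.23 in FR3 Klrg1-, 9.62 and 9.84 in FR2, and 8.61 and 9.03 in FR1, again with no overlap. Bhlhe40 rose by 1.34 ± 0.17 in FR3 Klrg1- against FR2 (adjusted p = 0.000273, limma), by 0.91 ± 0.17 in FR2 against FR1 (0.00604) and by 2.25 ± 0.17 (4.75-fold) in FR3 Klrg1- against FR1 (5.09e-07). The call in FR2 against FR1 was lost without FR1 replicate 1 (0.70 ± 0.19, 0.096) or FR2 replicate 2 (0.80 ± 0.21, 0.0718).

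Id2 (chr12:25093799-25096092) was called between the ends and at neither step. It stood at 10.13 and 10.10 in FR3 Klrg1-, 9.34 and 9.64 in FR2, and 8.53 and 9.09 in FR1. The groups kept apart, though the FR1 arrays differed from each other by more than the gap to FR2. Id2 rose by 1.30 ± 0.19 (2.47-fold) in FR3 Klrg1- against FR1 (adjusted p = 0.000248, limma). Neither single step was called: the difference was 0.62 ± 0.19 in FR3 Klrg1- against FR2 (0.0775) and 0.68 ± 0.19 in FR2 against FR1 (0.0544). Both passed in the first array set alone (0.0364 and 0.0235). The value in FR2 against FR1 was 0.40 without FR1 replicate 1 and 0.96 without FR1 replicate 2, where it was called (0.0262).

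Without the array set as a block, the FR3 Klrg1- arrays of both sets enter the same mean and the spread widens. Then 2 factors remained called in FR3 Klrg1- against FR1 (Prdm1 and Batf), 1 in FR3 Klrg1- against FR2 (Batf) and 0 in FR2 against FR1 with the same differences as above (limma), where 52 of all genes were called.

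Promoters are shown for Prdm1, called at the CD62L step alone, Batf, called at the CD69 step alone, and Nfil3, called at both. For Prdm1 and Batf the direct test between the steps was not called. The windows describe single factors, and whether factors of like course share sequence elements was not tested. RefSeq (GRCm38.p6) gave windows from 250 bases before to 50 after an annotated start for 5 of the 8 factors. The motifs searched on both strands were TGANTCA for BATF with a Jun partner (AP-1), GCGTG for AHR with ARNT, CACGTG for BHLHE40, TTANNTAA for NFIL3, and for IRF factors GAAA repeated after 2 bases of any kind. Matches are in capitals, and none shared bases with another.
Prdm1, chr10:44458699-44458998, minus strand: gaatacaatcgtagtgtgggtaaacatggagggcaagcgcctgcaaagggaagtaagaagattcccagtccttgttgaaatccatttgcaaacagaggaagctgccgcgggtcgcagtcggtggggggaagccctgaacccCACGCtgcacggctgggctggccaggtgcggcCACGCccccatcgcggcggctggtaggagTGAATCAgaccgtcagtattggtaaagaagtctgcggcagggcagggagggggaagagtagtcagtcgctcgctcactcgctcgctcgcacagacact
Batf, chr12:85686470-85686769, plus strand: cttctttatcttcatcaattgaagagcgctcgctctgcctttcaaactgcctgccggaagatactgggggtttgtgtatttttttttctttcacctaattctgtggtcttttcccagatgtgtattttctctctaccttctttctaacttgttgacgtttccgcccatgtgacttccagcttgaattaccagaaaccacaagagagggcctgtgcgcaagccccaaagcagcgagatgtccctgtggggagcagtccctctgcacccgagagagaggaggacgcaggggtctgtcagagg
Nfil3, chr13:52980990-52981289, minus strand: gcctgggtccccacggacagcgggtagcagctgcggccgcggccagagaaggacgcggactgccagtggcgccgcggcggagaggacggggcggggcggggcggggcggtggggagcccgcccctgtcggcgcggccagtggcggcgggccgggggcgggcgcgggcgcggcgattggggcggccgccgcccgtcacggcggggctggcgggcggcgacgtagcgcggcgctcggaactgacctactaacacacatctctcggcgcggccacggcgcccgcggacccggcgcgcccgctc
The Prdm1 window, which lies inside the annotated span of the gene, held an AP-1 match (TGAATCA) whose first base lay 48 bases before the start, and GCGTG on the opposite strand with first bases 109 and 77 before it. The Irf4 window held GCGTG once, on the opposite strand with its first base 80 before the start. No match was found in the windows of Batf, Nfil3 and Id2. Among all 32851 windows of the table, 7.81% held the AP-1 motif, 32.4% GCGTG, 7.15% CACGTG, 6% TTANNTAA and 3.44% the GAAA repeat. A match describes the letters of the window and does not show a bound site. The GC share was 59.7% for Prdm1, 49.7% for Batf and 81.7% for Nfil3, beside a median of 52.7% over all windows.

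FR3 Klrg1+ against FR3 Klrg1- asks what marks Klrg1+ cells among CD62Llo CD69+ Tregs, and it was read in the second array set, where FR3 Klrg1+ has 1 array. Prdm1, Ahr and Id2 rose, 3 of 8 factors, and 0 fell; of all genes 2.14% were called higher and 2.82% lower (4.96% in all). The single array is assumed to vary like the others. Prdm1 stood at 9.14 in FR3 Klrg1+, against 7.97 and 7.77 in FR3 Klrg1-, a difference of 1.27 ± 0.26 (2.41-fold, adjusted p = 0.0131, limma). Ahr stood at 9.14 in FR3 Klrg1+, against 7.94 and 8.08 in FR3 Klrg1- (1.13 ± 0.18, 2.18-fold, 0.00277). Both factors were also higher in FR2 than in FR1 and gave no call at the CD69 step, though for Prdm1 the direct test between the steps was not called. Maf had that course too, and its difference here was smaller (0.27 ± 0.17).

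Id2 was at 10.27 in FR3 Klrg1+ and at 9.22 and 9.63 in FR3 Klrg1- (0.84 ± 0.23, adjusted p = 0.0471, limma). That call lay next to the threshold and was lost without any 1 of FR3 Klrg1- replicates 1, 2 or 3 or FR2 replicates 1 or 2 (adjusted p from 0.0622 to 0.135), and with array weights, median centring or every probe set (0.0525 to 0.0572). Batf was at 10.48 in FR3 Klrg1+, against 10.07 and 9.91 in FR3 Klrg1- (0.49 ± 0.16, 0.0929). Bhlhe40 was at 9.48 in FR3 Klrg1+, against 8.97 and 8.70 in FR3 Klrg1- (0.64 ± 0.21, 0.092). For both the Klrg1+ array lay above both Klrg1- arrays without a call. With an intensity trend both were called, and Batf also after quantile normalization.

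Maf stood at 8.64 in FR3 Klrg1+ and at 8.38 and 8.36 in FR3 Klrg1- (0.27 ± 0.17, adjusted p = 0.393, limma; 95% interval -0.09 to 0.63). Nfil3 was at 8.98 in FR3 Klrg1+, against 9.00 and 8.91 in FR3 Klrg1- (0.03 ± 0.18, 0.946; -0.34 to 0.41), and Irf4 at 7.53 in FR3 Klrg1+, against 7.61 and 7.34 in FR3 Klrg1- (0.05 ± 0.19, 0.91; -0.35 to 0.46). For Nfil3 and Irf4 the Klrg1+ array lay between the Klrg1- arrays. Macrophage and monocyte markers moved with this comparison: their mean was 5.39 in FR3 Klrg1+ and 5.75 to 5.94 in FR3 Klrg1-, with 1 of 11 higher and 2 lower. NK and innate lymphoid markers had a mean of 5.01 in FR3 Klrg1+ and 5.12 to 5.44 in FR3 Klrg1-, with 0 of 8 higher and 2 lower (Tyrobp -1.15 ± 0.20 and Klrb1c -0.66 ± 0.17), and 1 of 8 dendritic cell markers was higher (Flt3). Their part in the result was not tested. Without the block, which then brings in FR3 Klrg1- replicates 1 and 2, 0 factors were called in this comparison (limma; 22 of all genes were called).

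The array sets themselves differed in the level of most of these factors within the same FR3 Klrg1- label. Replicates 1 and 2 (first set) against replicates 3 and 4 (second set) gave 6 of 8 factors higher, when 19.3% of all genes were called higher and 18.9% lower, 38.3% in all. The share was larger among brighter genes: without those under percentile 40 of mean level, 6741 were called among fewer tested, in place of 7634. Bhlhe40 stood at 10.90 and 11.23 in the first set, against 8.97 and 8.70 in the second (2.23 ± 0.17, adjusted p = 1.14e-07, limma). Irf4 stood at 8.76 and 8.93 in the first set, against 7.61 and 7.34 in the second (1.37 ± 0.15, 4.99e-06). Maf (1.11 ± 0.14), Nfil3 (1.03 ± 0.14), Id2 (0.69 ± 0.19) and Ahr (0.67 ± 0.15) were higher in the first set too. Prdm1 (-0.28 ± 0.21, 0.331) and Batf (-0.26 ± 0.13, 0.126) were not called.

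Relatives and partners of these factors also differed between the sets. Of 21 relatives and partners of BATF and IRF4, 14 were higher in the first set and 2 lower (median 0.77, beside -0.02 for all genes), among them Junb (3.03 ± 0.15), Atf3 (2.66 ± 0.17) and Jun (1.61 ± 0.14). The orphan receptor Nr4a2 was higher by 2.12 ± 0.14, Cd69 by 2.11 ± 0.18 and Foxp3 by 0.89 ± 0.15. Not every gene of T cell activation went this way: Egr2, a zinc finger factor induced by the T cell receptor, was lower in the first set, at 8.84 and 8.96 against 10.59 and 10.62 in the second (-1.71 ± 0.14, adjusted p = 2.52e-07, limma), and Myc was not called (0.13 ± 0.19, 0.624). Of 11 macrophage and monocyte markers 0 were higher in the first set and 6 lower, and of 8 NK and innate lymphoid markers 0 were higher and 2 lower. The sources used here do not say how the sets differed in handling, and their part in these levels was not tested.

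**Figure D3:**
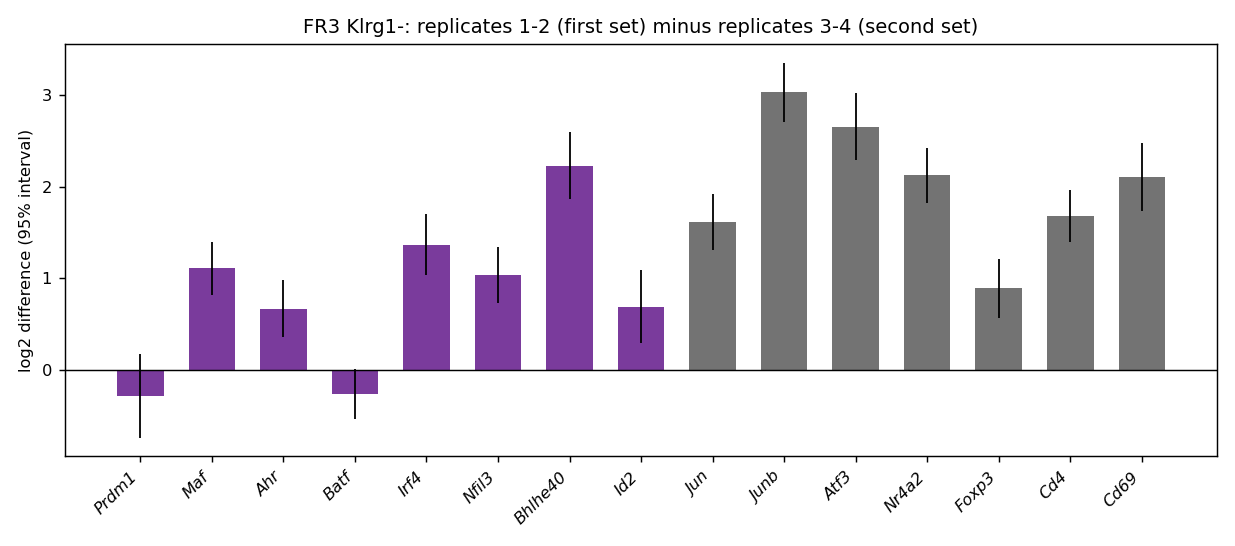
Log2 difference between FR3 Klrg1- replicates 1 and 2 (first array set) and replicates 3 and 4 (second set), vertical axis, with 95% intervals; purple bars are the 8 factors and grey bars other genes named in the text. Bhlhe40 and Irf4 stand highest among the factors, beside Junb and Atf3, while the bars of Prdm1 and Batf lie just below 0.

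Effector Treg genes tied to BATF, IRF4 and Blimp-1 were described beside the factors. This list and those below were drawn up with earlier results of these data known, so their counts describe and test nothing. Among all genes 4.39%, 1.96%, 2.81% and 2.14% were called higher in the comparisons below, in their order. Called lower were 3.79%, 2.30%, 1.94% and 2.82%. Of 20 listed, 18 were measured, and all 18 rose in FR3 Klrg1- against FR1 (median 1.59, beside 0.02 for all genes). In FR2 against FR1 12 rose and 0 fell (median 0.90), in FR3 Klrg1- against FR2 9 rose and 1 fell (median 0.45), and in FR3 Klrg1+ against FR3 Klrg1- 9 rose and 1 fell (median 0.53). Klrg1 itself, by which those cells were sorted, is 1 of these 9. Some followed the CD62L step. The chemokine receptor Cxcr3 stood at 11.30 and 11.46 in FR3 Klrg1-, 11.45 and 11.41 in FR2, and 8.69 and 8.98 in FR1, and the suppressor molecule Fgl2 at 8.07 and 8.58 in FR3 Klrg1-, 8.12 and 8.54 in FR2, and 6.03 and 6.31 in FR1. For both the test of the CD69 step against the CD62L step was called lower (Cxcr3 -2.64 ± 0.24, adjusted p = 2.49e-05; Fgl2 -2.17 ± 0.33, 0.00265; limma).

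Others followed the CD69 step. The costimulatory receptor Tnfrsf9 stood at 11.86 and 11.75 in FR3 Klrg1-, 9.24 and 9.48 in FR2, and 9.32 and 9.24 in FR1, and the chemokine receptor Ccr8 at 10.97 and 11.10 in FR3 Klrg1-, 8.12 and 8.63 in FR2, and 7.53 and 8.08 in FR1. Here the CD69 step was larger (Tnfrsf9 2.36 ± 0.23, adjusted p = 5.04e-05; Ccr8 2.08 ± 0.32, 0.00295; limma). Il10 and the co-inhibitory receptor Tigit rose at each step and again with Klrg1. Il10 stood at 9.25 and 9.80 in FR3 Klrg1-, 7.73 and 8.04 in FR2, and 5.46 and 6.11 in FR1, and in the second set at 9.66 in FR3 Klrg1+, against 8.39 and 8.41 in FR3 Klrg1- (1.26 ± 0.25, adjusted p = 0.011, limma). Tigit stood in the second set at 11.07 in FR3 Klrg1+, against 10.20 and 10.19 in FR3 Klrg1- (0.88 ± 0.21, 0.0265).

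Of 11 genes that Blimp-1 is known to repress in lymphocytes, 10 were measured. In FR2 against FR1 3 fell, Ccr7, Bach2 and Id3, and 0 rose, beside 2.30% of all genes called lower and 1.96% higher. The lymph node homing receptor Ccr7 stood at 10.10 and 10.14 in FR2, against 11.67 and 11.79 in FR1 (-1.61 ± 0.13). Bach2, itself a repressor of Prdm1, stood at 8.65 and 8.44 in FR2, against 9.62 and 9.46 in FR1 (-0.99 ± 0.16, adjusted p = 0.00188, limma). Id3, the sister of Id2, stood at 7.21 and 7.33 in FR2, against 7.98 and 7.83 in FR1 (-0.64 ± 0.17, 0.0447).

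In FR3 Klrg1+ against FR3 Klrg1- 3 of the 10 fell, where Prdm1 rose, beside 2.82% of all genes called lower. Ccr7 stood at 6.84 in FR3 Klrg1+, against 9.15 and 9.37 in FR3 Klrg1- (-2.42 ± 0.16, adjusted p = 1.27e-06, limma). Id3 stood at 6.47 in FR3 Klrg1+, against 8.16 and 7.68 in FR3 Klrg1- (-1.45 ± 0.20, 0.00103), and Bcl6, the repressor of follicular T cells, at 7.32 in FR3 Klrg1+, against 8.09 and 8.11 in FR3 Klrg1- (-0.78 ± 0.21, 0.0448). Bcl6 went the other way at the CD69 step: it stood at 8.94 and 9.30 in FR3 Klrg1-, 7.51 and 7.95 in FR2, and 7.95 and 8.25 in FR1, and rose by 1.39 ± 0.17 in FR3 Klrg1- against FR2 (0.000204). In FR3 Klrg1- against FR1 1 of the 10 rose (Bcl6) and 2 fell (Ccr7 and Bach2), with a median of -0.11. Of all genes 4.39% were called higher there and 3.79% lower.

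**Figure D4:**
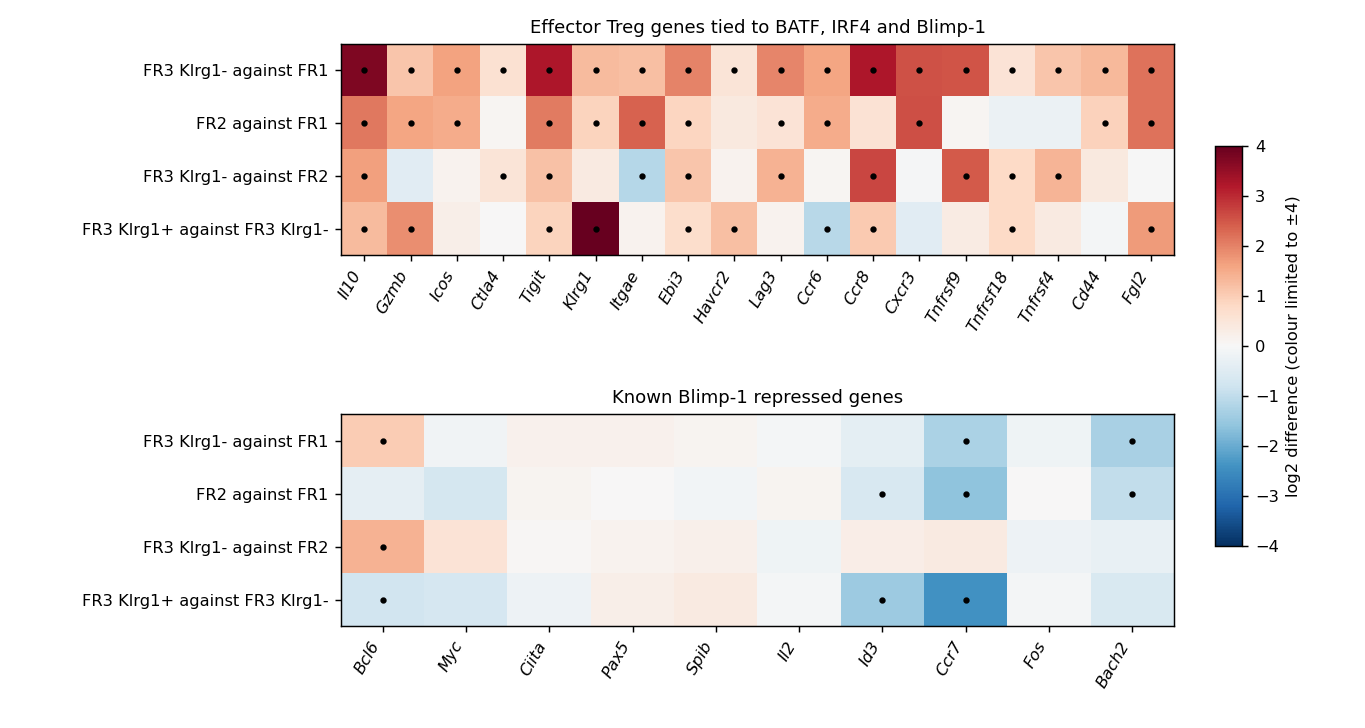
Log2 differences (colour, red higher and blue lower) of the measured effector Treg genes tied to BATF, IRF4 and Blimp-1 (top) and of known Blimp-1 repressed genes (bottom), in 4 comparisons; a dot marks a call. The row for FR3 Klrg1- against FR1 is red and dotted for all 18 effector genes, while Ccr7, Id3 and Bach2 are blue for FR2 against FR1 and Bcl6 changes colour between comparisons.

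Partners and relatives of the factors were counted in the same way in FR3 Klrg1- against FR1. The share of all genes was 4.39% called higher and 3.79% called lower. Of 21 relatives and partners of BATF and IRF4, 3 rose and 5 fell in FR3 Klrg1- against FR1 (median 0.00). Atf3, a stress-induced AP-1 relative (1.34 ± 0.17), Irf8 (0.64 ± 0.15) and Irf5 (0.54 ± 0.13) rose. Bach2 (-1.28 ± 0.16), Irf7 (-0.67 ± 0.12) and Jun (-0.62 ± 0.14) fell, as did Irf1 and Irf9. Junb (0.13 ± 0.15), the dimer partner of BATF, and Batf3 (0.09 ± 0.14) were not called. Of 8 measured MAF relatives 0 rose and 2 fell, the oxidative stress factor Nfe2l2 (-0.86 ± 0.14) and Mafk (-0.52 ± 0.15).

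Of 10 Id and E protein genes and relatives, 1 rose, the Notch target Hey1 (1.13 ± 0.14), and Id3 had a difference of -0.38 ± 0.17 (adjusted p = 0.227, limma). Of 10 measured genes of the Ahr pathway, 1 rose, the hypoxia factor Hif1a (1.31 ± 0.14). The dimer partner Arnt (0.03 ± 0.13) and the classical AHR targets Cyp1a1 (0.45 ± 0.15), Tiparp (0.01 ± 0.14), Ahrr (0.02 ± 0.14) and Cyp1b1 (0.17 ± 0.18) were not called in FR3 Klrg1- against FR1, nor in FR2 against FR1 or FR3 Klrg1+ against FR3 Klrg1-, where Ahr rose. Cyp1a1 stood at 4.92 and 5.07 in FR3 Klrg1-, 4.91 and 4.89 in FR2, and 4.63 and 4.45 in FR1, and FR1 lay below both other groups (adjusted p = 0.0775 for FR3 Klrg1- and 0.207 for FR2, each against FR1, limma). Cyp1a1, Ahrr and Cyp1b1 were dim, below the median of all probe sets on every array (6.15 to 6.31). The second set gave Ahrr at 5.03 in FR3 Klrg1+, against 4.50 and 4.80 in FR3 Klrg1- (0.38 ± 0.17, 0.22).

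Of 15 measured clock genes 2 rose in FR3 Klrg1- against FR1, the nuclear receptor Rora (1.20 ± 0.13) and the clock activator Arntl (0.49 ± 0.14), and 1 fell, the clock repressor Cry1 (-0.60 ± 0.14). Bhlhe41, the closest relative of Bhlhe40, had a difference of 0.08 ± 0.15 (adjusted p = 0.871, limma) and stayed between 3.72 and 4.46 on the grouped arrays. Of 36 other transcription factors of T cell and Treg states, 12 rose and 5 fell. Among them Tbx21 (1.26 ± 0.14), Nr4a2 (1.20 ± 0.14) and Nfatc1 (1.19 ± 0.14) rose, and Satb1 (-2.24 ± 0.13), Klf2 (-1.94 ± 0.15) and Lef1 (-1.26 ± 0.13) fell.

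The genes whose course was most like that of each called factor were found by the root mean square difference of log2 values over the 9 grouped arrays, after the mean of each array set was taken off. Closest to Batf was Cep112, at 0.0804, then Nr4a2 at 0.12 and Hacd3 at 0.127. Closest to Nfil3 was the myosin gene Myo1e at 0.0764, then the ectonucleotidase Nt5e (CD73) at 0.0939, and closest to Maf was the phospholipase Plcb4 at 0.0925, then the chemokine Ccl5 at 0.103. Ahr had Cldnd1 at 0.112 and the cytokine receptor chain Il17rb at 0.141, Bhlhe40 had Mmd at 0.116 and the adhesion molecule Alcam at 0.151, and Id2 had Adap1 at 0.135. Prdm1 lay farther from any gene that was kept, with Ccrl2 at 0.23 and the laminin chain Lamc1 at 0.231. Among the 8 factors Bhlhe40 and Nfil3 were the closest pair at 0.261, followed by Batf and Id2 at 0.274. Many other genes lay nearer. Ranked among all genes, Nfil3 was 14 from Bhlhe40, and Bhlhe40 was 76 from Nfil3. Id2 was 236 from Batf, and Batf 54 from Id2. The lowest rank within the 8 was that of Ahr from Prdm1, at 10, with Prdm1 at 75 from Ahr.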

How the data were processed

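RNA of sorted Tregs (20 to 50 ng per sample, per the labels) was amplified and measured on Affymetrix Mouse Gene ST 1.0 arrays. The authors deposited RMA values on a log2 scale, per the submitters' processing notes; joint normalization of all arrays is not stated. Of 35556 probe sets, 21789 had 1 gene symbol, 1621 had several and 12146 were not in the probe table; the brightest probe set per gene left 19938 genes, with no intensity filter.

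One limma 3.58.1 fit (R 4.3.3) over the 9 grouped arrays had group and array set as terms, with moderated variances and Benjamini-Hochberg adjustment over all genes at 0.05. The array sets came from clustering the arrays by correlation. The fit was tested on data simulated with independent noise, in which some genes were moved. In the comparisons of the first array set, 100% of genes moved by a log2 difference of 1 were found. Unmoved genes were also called: 24 in FR3 Klrg1- against FR1, 31 in FR2 against FR1 and 16 in FR3 Klrg1- against FR2. Precision is limited by the number of arrays. The 10th array, placed in no group, entered no comparison.

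The members, lists, tests and alternatives were chosen with earlier results of these data known. The text names the 8 factors, up to 6 genes per list with the largest called difference in FR3 Klrg1- against FR1, genes tied to a factor by name, and for each called factor up to 3 genes of like course. Other genes were named after their values were seen. Promoters came from RefSeq (GRCm38.p6).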

Additional observations from a re-analysis of the deposited data

Results flagged for a closer look

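The array placed in no group, which lies in the second array set, was used in no comparison. It had Prdm1 at 9.14, Batf at 10.65, Maf at 8.54, Id2 at 10.27, Ahr at 9.01, Nfil3 at 9.58 and Bhlhe40 at 9.03. These lay above both FR3 Klrg1- arrays of the second set, narrowly for Bhlhe40, at 8.97 and 8.70 there. Irf4 stood at 7.29, below both. The share of all genes above both arrays was not counted, so these positions are no result about the factors. On the array placed in no group the Klrg1 transcript was at 12.41, while FR3 Klrg1+ had 12.33 and the FR3 Klrg1- arrays of that set 7.27 and 7.47. The labels contradict each other on this array, and its group was not assigned from these values.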

How the results depend on the processing

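Of 784 values of single factors under the alternatives, 698 kept their direction and their side of the threshold, 33 lost a call, 31 gained one and 22 turned sign; no value that turned had been called (limma throughout). Without the array set as a block the factors called were 2 in FR3 Klrg1- against FR1, 0 in FR2 against FR1, 1 in FR3 Klrg1- against FR2, 0 in FR3 Klrg1+ against FR3 Klrg1- and 0 in the test between steps, and the genes called were 439, 52, 55, 22 and 9, in place of 1632, 850, 948, 989 and 533. There Irf4 turned to -0.20 in FR3 Klrg1- against FR1, Irf4 to -0.52 and Maf to -0.46 in FR3 Klrg1- against FR2, Irf4 to -0.63, Maf to -0.28, Nfil3 to -0.48 and Bhlhe40 to -0.47 in FR3 Klrg1+ against FR3 Klrg1-, and Nfil3 to -0.51 and Bhlhe40 to -0.69 between steps. This fit averages FR3 Klrg1- over both sets, which differ in 7634 genes. An intensity trend gave 5 factors in FR3 Klrg1+ against FR3 Klrg1-. Between steps Nfil3 was -0.11 after quantile normalization and Id2 0.0389 with arrays centred on their medians; the cause was not tested.

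With 1 array left out at a time, the factors called were 7 to 8 in FR3 Klrg1- against FR1, 4 to 6 in FR2 against FR1, 3 to 4 in FR3 Klrg1- against FR2, 2 to 3 in FR3 Klrg1+ against FR3 Klrg1-, 0 to 3 between steps and 5 to 7 between array sets. The values whose sign turned ran from -0.15 to 0.70 for Prdm1 and from -0.0174 to 0.21 for Maf in FR3 Klrg1- against FR2, from -0.0840 to 0.19 for Irf4 and from -0.0139 to 0.0768 for Nfil3 in FR3 Klrg1+ against FR3 Klrg1-, from -0.34 to 0.0382 for Irf4, from -0.36 to 0.24 for Id2 and from -0.17 to 0.19 for Nfil3 between steps, and from -0.71 to 0.14 for Prdm1 between array sets. Genes called ranged from 910 to 2063, 253 to 1331, 302 to 1318, 721 to 1553, 62 to 893 and 5698 to 7527 in the same order.

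Groups of the first array set share replicate numbers, but arrays of 1 number did not deviate together in every pair (correlations of 0.18, 0.14 and 0.02). With the replicate block in that set alone 8, 6, 4 and 3 factors were called in FR3 Klrg1- against FR1, FR2 against FR1, FR3 Klrg1- against FR2 and between steps, and 2355, 1669, 1586 and 1187 genes; the set alone gave 1331 genes in FR2 against FR1 and 893 between steps. Leaving out genes under percentile 40 gave 1401 and 939 for these, array weights 1618 in FR3 Klrg1- against FR2 and 948 between steps, and the intensity trend 871 between steps.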

Other observations

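Some clock genes had a course unlike that of Nfil3 and Bhlhe40, seen after the values were examined. Nr1d1, a clock repressor that competes with Rora for the same sites, stood at 6.51 and 6.54 in FR3 Klrg1-, 7.59 and 7.54 in FR2, and 6.24 and 6.53 in FR1. It was high in FR2 alone among the groups of the first array set, by 1.17 ± 0.13 in FR2 against FR1 (adjusted p = 8.52e-05, limma) and by -1.04 ± 0.13 in FR3 Klrg1- against FR2 (0.000292). In the second set it was at 6.82 in FR3 Klrg1+, against 6.76 and 6.77 in FR3 Klrg1-. Rora stood at 9.32 and 9.36 in FR3 Klrg1-, 9.74 and 9.75 in FR2, and 8.04 and 8.23 in FR1.

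Of the 36 other transcription factors, 4 were higher and 1 lower in FR3 Klrg1+ against FR3 Klrg1-, beside 2.14% and 2.82% of all genes. Pparg and Gata3 were among those higher, and were picked after their values were seen. Pparg, a regulator of tissue Tregs, stood at 8.08 in FR3 Klrg1+, against 5.77 and 6.21 in FR3 Klrg1- (2.09 ± 0.19, adjusted p = 3.04e-05, limma). Gata3 stood at 10.53 in FR3 Klrg1+, against 9.29 and 9.10 in FR3 Klrg1- (1.33 ± 0.16, 0.000346). The E protein gene Tcf4, whose product ID2 can bind, fell to 6.05 in FR3 Klrg1+, against 6.71 and 6.96 in FR3 Klrg1- (-0.78 ± 0.17, 0.0155). Hif1a stood at 9.62 in FR3 Klrg1+, against 10.54 and 10.35 in FR3 Klrg1- (-0.82 ± 0.17, 0.0139), the reverse of its difference in FR3 Klrg1- against FR1.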
